A study of Mus musculus with 44 samples.

Results

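The transcripts of 43 genes of the DNA replication machinery were followed in single two-cell mouse embryos whose mothers had kept or deleted Dppa2 and Dppa4 in the oocyte. The genes were taken by name, as a list of the proteins that mark, license, unwind and copy chromosomal DNA, from a table of 35269 gene rows, and their measured values form no part of the rule. All 43 were found in the table, each in 1 row, and all 43 passed the filter on low values, a mean log2 RPM of 0 or more, which kept 16412 genes. RPM is the reads of a gene scaled to a library of 1000000.

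The series holds 44 embryos of C57Bl/6 background from natural matings, each 1 RNA-seq library, in 4 groups. Dppa2 and Dppa4 encode a pair of small DNA-binding proteins, and their floxed alleles were deleted together by Zp3-Cre, a recombinase driven in growing oocytes, so that eggs of these mothers carried the deleted alleles. WT embryos (14) came from control mothers and wild-type fathers. HET1 embryos (15) came from cKO mothers and wild-type fathers, so they had no functional maternal copy and a functional paternal one. HET2 (5) and HOM (10) embryos were littermates from cKO mothers and heterozygous fathers. HET2 embryos had received the functional paternal copy and HOM embryos the deleted one. Their genotypes were assigned in the study from the Dppa2 and Dppa4 transcripts of the same libraries, so those transcripts do not test the HET2 and HOM labels. Each cross had 2 matings, and the embryos of 1 mating are called a litter here. WT litters held 10 and 4 embryos, HET1 litters 7 and 8, HET2 litters 4 and 1, and HOM litters 3 and 7. Each litter belongs to 1 cross, so a comparison with WT rests on 2 litters a cross. The embryos are separate samples, but those of a litter share their parents, so p-values over embryos count relatives as independent.

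Replication starts when the origin recognition complex (ORC) binds chromatin and, with Cdc6 and Cdt1, loads the ring-shaped Mcm2-7 helicase, a step that geminin (Gmnn) blocks by binding Cdt1. In S phase the kinase Cdc7 with its partner Dbf4, together with Cdc45 and the GINS complex, turns the loaded ring into a moving helicase, behind which the polymerases, the sliding clamp Pcna with its loader, and the single-strand binding complex RPA copy the DNA. Mouse zygotes and two-cell embryos replicate largely with proteins and messages made in the oocyte while transcription of the embryo's own genome begins, and in somatic cells many of these genes are targets of E2F transcription factors.

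Promoter windows from RefSeq (GRCm38.p6, 250 bases before to 50 bases after the annotated start) were found for 35 of the 43 genes. Gins1, Gins2, Gins4, Mcm4, Gmnn, Rfc2, Prim2 and Pole had no entry there. The windows were searched on both strands, overlaps included, for TTTCCCGC, TTTGGCGC, TTTCGCGC and TTTGCCGC, letters that E2F factors are known to bind. At least 1 match was present for 15 of the 35 genes (42.9%) and for 2.6% of all 27025 genes with a window. Counted by window, 34.1% of the 44 windows of the replication genes and 2.26% of all 32851 windows held a match. The pentamer CCAAT was in a window of 60.0% of the 35 genes and of 41.1% of all genes. Mcm6 had 3 matches, Mcm3, Mcm5, Mcm7 and Rfc3 had 2 each, and Orc1, Orc3, Cdt1, Cdc6, Gins3, Pola1, Pold1, Pold3, Pole2 and Lig1 had 1. Of the 4 genes that the results below turn on, 1 window each is printed 5′ to 3′ on the strand of the gene, with matches to the E2F letters in capitals. Orc2 has a further window (chr1:58501377-58501676, minus strand), which held 0 matches and is not printed.

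Gins3, chr8:95633309-95633608, plus strand: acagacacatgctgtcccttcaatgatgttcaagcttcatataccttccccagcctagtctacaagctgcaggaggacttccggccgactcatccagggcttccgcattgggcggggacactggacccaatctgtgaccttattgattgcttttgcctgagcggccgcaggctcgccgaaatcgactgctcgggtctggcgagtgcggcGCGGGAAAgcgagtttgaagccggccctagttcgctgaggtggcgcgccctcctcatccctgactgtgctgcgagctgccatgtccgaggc

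Mcm6, chr1:128359656-128359955, minus strand: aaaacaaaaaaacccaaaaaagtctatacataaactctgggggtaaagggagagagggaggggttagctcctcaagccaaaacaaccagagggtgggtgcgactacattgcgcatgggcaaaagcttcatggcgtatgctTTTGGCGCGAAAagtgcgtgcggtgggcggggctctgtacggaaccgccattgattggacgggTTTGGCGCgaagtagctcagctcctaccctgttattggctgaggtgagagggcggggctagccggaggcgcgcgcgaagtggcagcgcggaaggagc

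Orc5, chr5:22550289-22550588, minus strand: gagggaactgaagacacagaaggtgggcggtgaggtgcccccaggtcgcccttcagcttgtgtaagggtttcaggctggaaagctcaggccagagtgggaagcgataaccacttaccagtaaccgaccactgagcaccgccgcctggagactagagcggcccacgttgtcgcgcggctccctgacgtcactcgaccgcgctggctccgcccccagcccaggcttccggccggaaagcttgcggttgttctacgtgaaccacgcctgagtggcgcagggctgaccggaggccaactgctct

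Orc2, chr1:58505060-58505359, minus strand: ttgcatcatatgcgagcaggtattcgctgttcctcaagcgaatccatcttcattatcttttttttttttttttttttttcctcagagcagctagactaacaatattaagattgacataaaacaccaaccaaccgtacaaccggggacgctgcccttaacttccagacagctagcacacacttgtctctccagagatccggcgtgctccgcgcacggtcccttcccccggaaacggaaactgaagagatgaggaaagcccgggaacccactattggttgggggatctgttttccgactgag

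The Gins3 window held 1 match and the Mcm6 window 3, of which a pair overlap on opposite strands, while the Orc5 and Orc2 windows shown held none of these letters. A match is a description of the window and not a measured binding site.

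Libraries differed in depth, from 247667 to 3163026 reads, with medians of 1770010 in WT, 528166 in HET1, 1108889 in HET2 and 803369 in HOM embryos, and intervals and floors given for reads cover counting error only. Because a gene with no reads has a deposited value that moves with depth, all values were raised to a common floor of 1.86 log2 RPM, the value of 0 reads in the shallowest library, and differences near the floor are understated. Dppa2 had 184 to 2144 reads in WT embryos and 0 reads in 7 of 10 HOM embryos, with 7 reads at most, and Dppa4 had 79 to 499 reads in WT and at most 5 in HOM embryos. In HET1 embryos, whose genotype follows from the cross, Dppa2 fell by 1.99 ± 0.31 (SE) and Dppa4 by 1.63 ± 0.29 on the log2 scale relative to WT (limma, adjusted p = 0.000595 and 0.00151, and 0.088 and 0.172 with litter as a random effect). The HET1 litters also differed from each other, with Dppa2 lower in litter 2 by 1.56 ± 0.29 and Dppa4 by 1.79 ± 0.30 (adjusted p = 0.000179 and 7.34e-05). Of 12 cumulus and granulosa cell markers, 10 had a mean below 1 RPM and Fshr had no read in any embryo, and of 7 blastocyst markers Cdx2 had fewer than 3 reads in every embryo, whereas Gata4 was found in 43. In the embryo as a whole, fewer copies per cell and fewer cells that hold a transcript cannot be told apart.

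In WT embryos the replication genes were, per length, more abundant than most genes. Their median level was 10.8 RPKM (RPM per kb of exon), against 1.94 RPKM for the 16306 tested genes with a known length, and 38 of the 43 lay above that value. At least 3 reads were counted in all 44 embryos for 17 of the genes and in at least 40 embryos for 31. The levels covered a wide range, from Gmnn at 312 ± 106 RPKM (SD, n = 14) to Pold1 at 0.42 ± 0.58. In the order of means, 41 of the 42 neighbouring pairs overlapped within 1 SD, so the order shows broad classes and not ranks. The exception was Gmnn, which was above Orc6, the next gene, in all 14 embryos.

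**Figure D1:**
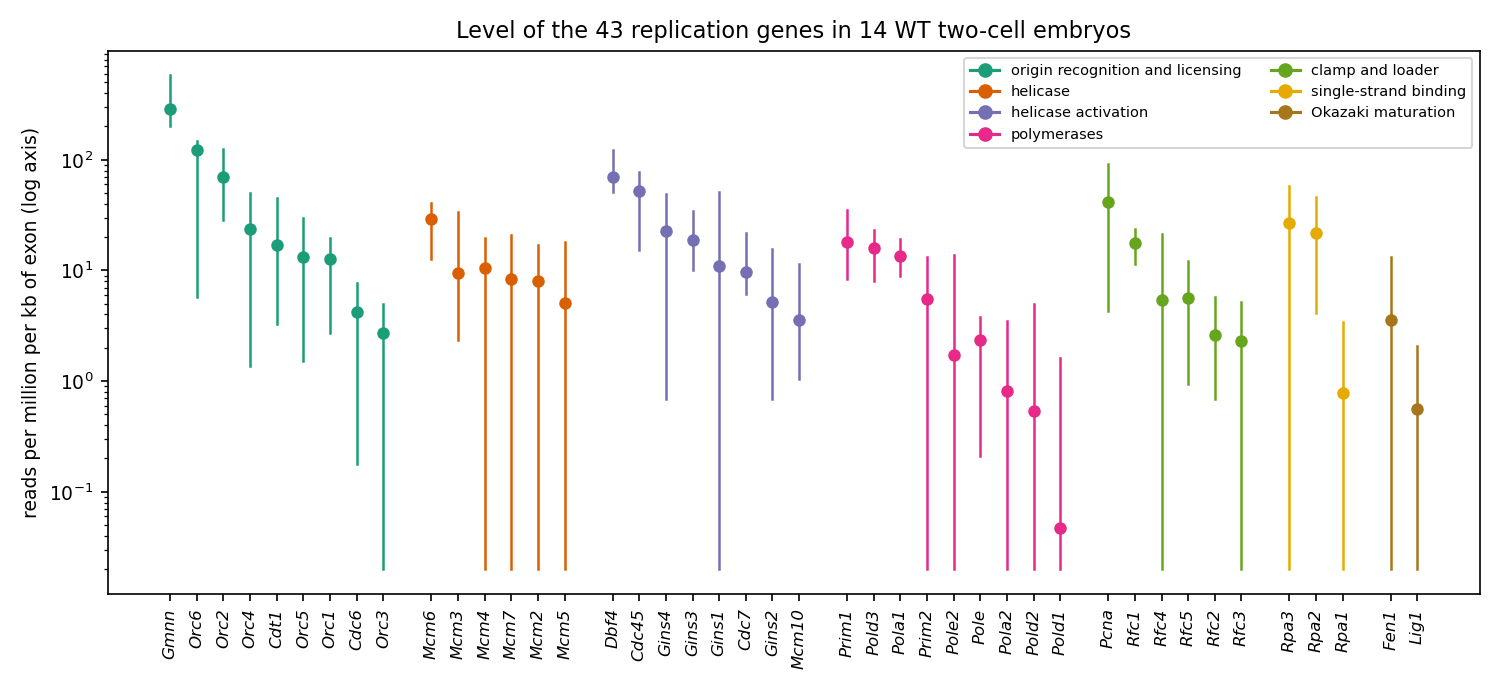
Levels of the 43 replication genes in the 14 WT embryos, grouped by role, in RPKM on a log axis. Points are medians, lines run from the lowest to the highest embryo, and lines that reach the lowest drawn level include embryos with 0 reads. Gmnn and Orc6 sit highest and Pold1 lowest.

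Among origin recognition and licensing genes, Gmnn, the inhibitor of licensing, was the most abundant of all 43 and ranged from 200.4 to 578 RPKM. Its binding partner Cdt1, the loading factor, was at 18.4 ± 12.5 RPKM, and within single WT embryos Gmnn was 8.01 to 149 times Cdt1 (median 16.5). ORC subunits did not share a level. Orc6 was at 119 ± 34.5, Orc2 at 68.1 ± 22.9, Orc4 at 24.3 ± 11.8, Orc5 at 14.5 ± 7.79, Orc1 at 11.9 ± 4.47 and Orc3 at 2.77 ± 1.51 RPKM. Orc6, the subunit least tightly held in the complex, exceeded Orc1, its ATPase, in 13 of 14 embryos, with a median ratio of 10.0. Cdc6, the ATPase that works with ORC in loading, was at 4.37 ± 1.97 RPKM.

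The 6 helicase subunits, which form a ring with 1 copy of each, were closer together. Mcm6 was highest at 28.4 ± 7.96 RPKM and Mcm5 lowest at 5.57 ± 4.13, and the other 4 lay between 8.4 and 10.8. Mcm6 was above Mcm5 in 14 of 14 WT embryos, with a median ratio of 5.65. Among the genes that activate the ring, Dbf4, the regulatory subunit of the Cdc7 kinase, was at 74.9 ± 20.3 RPKM and Cdc7 itself at 10.8 ± 4.59, and Dbf4 exceeded Cdc7 in 14 of 14 embryos by 3.78 to 11.2 times. Cdc45 was at 48.7 ± 19.0 RPKM. The 4 GINS subunits ranged from Gins4 at 24.0 ± 14.6 and Gins3 at 18.4 ± 7.3 to Gins1 at 13.8 ± 13.0 and Gins2 at 5.66 ± 4.15 RPKM, and Mcm10, which helps the helicase start, was lowest of this class at 4.62 ± 2.83. For Gins2, 67.3% of the exon length is shared with Gse1 on the opposite strand, and reads were assigned without strand.

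Of the polymerase subunits, Prim1 of the priming complex was highest at 18.5 ± 8.09 RPKM and Pola1 was at 13.7 ± 3.54, whereas the partner of Pola1, Pola2, was at 1.15 ± 1.1. The catalytic subunit of polymerase delta, Pold1, had at least 3 reads in 14 of 44 embryos and Pold2 in 23, while the accessory subunit Pold3 was at 16.3 ± 4.13 RPKM and counted in 44 of 44. Pold3 exceeded Pold1 in every WT embryo, 7 of which had no Pold1 read. Pole, the catalytic subunit of polymerase epsilon, was at 2.13 ± 1.06 RPKM. The sliding clamp Pcna was at 42.2 ± 20.1 RPKM, above all 5 loader subunits, of which Rfc1 was highest at 18.0 ± 3.53 and Rfc3 lowest at 2.17 ± 1.66. RPA subunits were unequal as well, since Rpa3 was at 31.2 ± 16.4 and Rpa2 at 21 ± 13.9 but Rpa1, which makes most of the contact with DNA, at 1.1 ± 1.08 RPKM. Of the genes that finish Okazaki fragments, the nuclease Fen1 was at 5.27 ± 4.8 and the ligase Lig1 at 0.7 ± 0.72 RPKM, and 78.8% of the Fen1 exon length overlaps Gm10143 on the opposite strand. The same extremes held when the principal transcript alone gave the length: 9 of the 10 highest and 8 of the 10 lowest genes were shared, and the largest ratio of the 2 levels was that of Dbf4, from 74.9 to 272 RPKM. Embryos varied least for Rfc1 (SD 0.29 log2 RPM in WT), Dbf4 (0.37) and Pola1 (0.39), apart from the genes near the floor, and most for Mcm2 (1.38) and Gins2 (1.34). The Mcm2 value was widened by embryo k of litter 2, at the floor of 1.86 against 3.72 or more in the other WT embryos.

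The first question was whether embryos of cKO mothers held different amounts of these transcripts. Summed over the 43 genes, WT embryos held 2769 to 4279 RPM (median 3525), HET1 embryos 3067 to 4257 (median 3554), HET2 embryos 3173 to 3834 (median 3326) and HOM embryos 2932 to 4437 (median 3596). The ranges overlapped almost wholly. Licensing and activation genes made up most of the WT sum, with medians of 1415 and 976 RPM, so it says little about the other roles. In the fit across all 16412 genes (limma, Benjamini-Hochberg adjusted p under 0.05), HET1 embryos differed from WT in 4.54% of genes, and lower in 2.05% (409 higher and 336 lower, or 397 and 595 after each embryo was re-centred on its median). Of the 43 replication genes, 2 were called, or 4.65%, both lower, Gins3 and Orc2. In the same comparison 3 of 14 oocyte markers and 2 of 15 two-cell markers were called higher. With litter as a random effect neither was called (adjusted p = 0.176 for Gins3 and 0.444 for Orc2), nor was any of the 16412 genes, while 3 of the 43 and 7.96% of all genes had an unadjusted p under 0.05. In HOM against WT embryos 0 of the 43 were called, with 0.0183% of all genes, and in HET2 against WT 0 of the 43, with 0.0305% of all genes. At an unadjusted p under 0.05, limma gave 14 of the 43 in HET1 (18.4% of all genes), 7 in HOM (14.5%) and 3 in HET2 (8.52%). On recovered reads, limma voom called 2, 0 and 0 of the 43, with 16.3%, 0.067% and 0.0305% of all genes. The HET1 calls over all genes were then 2212 higher and 464 lower. The median difference of the 43 genes was 0.10 in HET1 and 0.14 in HOM, against 0.05 and 0.09 over all genes, and it turned to -0.02 and -0.05 after re-centring. In HET2 it was -0.10, against 0.00 over all genes. There it moved to -0.04 after re-centring, 0.04 with the deposited values and -0.24 with libraries thinned to the lowest depth. Standard errors of the single genes ran up to 0.48 in HET1, 0.53 in HOM and 0.67 in HET2, so that 2 standard errors come to about 1 on the log2 scale for the noisier genes. The 3 comparisons share the WT embryos.

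**Figure D2:**
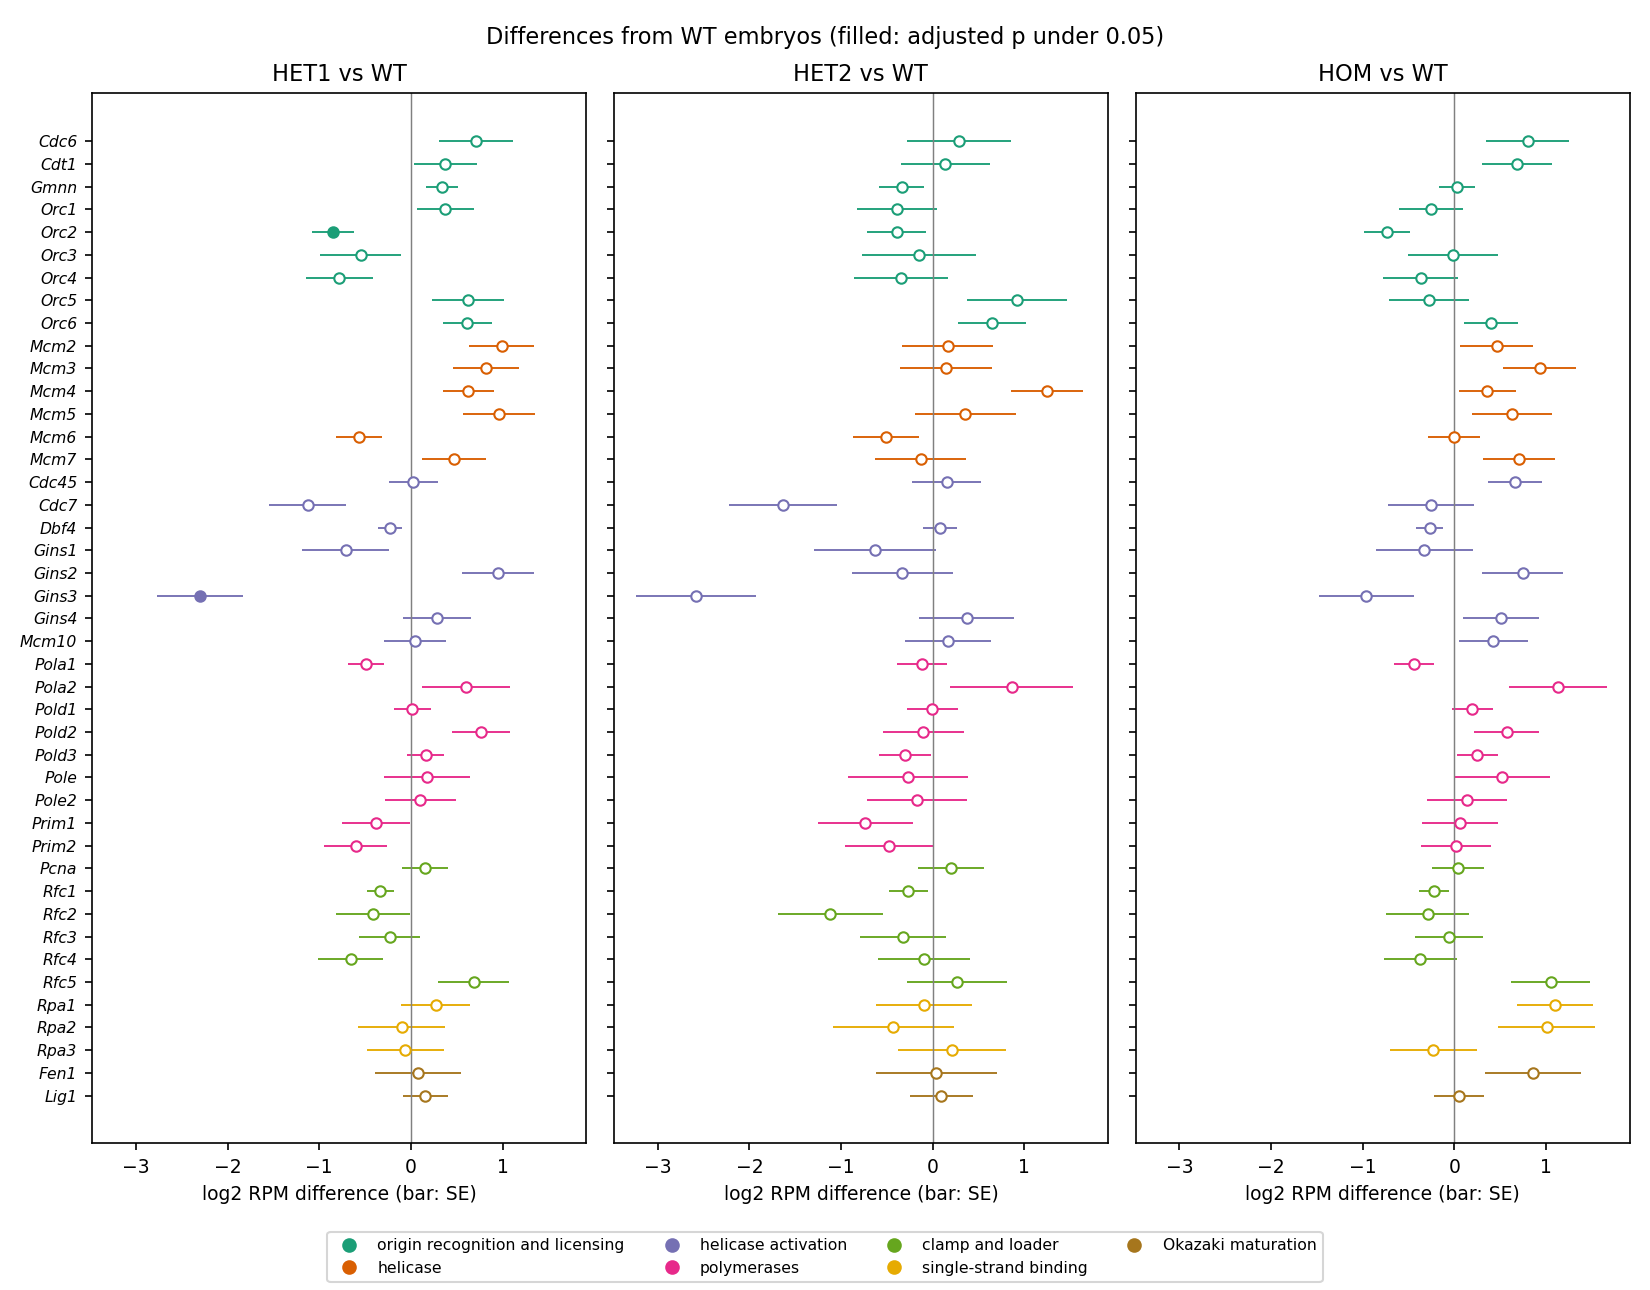
Differences of the 43 genes from WT embryos in HET1, HET2 and HOM embryos, in log2 RPM with the standard error, coloured by role. Filled points, Gins3 and Orc2 in HET1, had an adjusted p under 0.05, and the same WT embryos enter all 3 panels.

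By role, the helicase subunits in HET1 embryos had a median difference of 0.72, and 5 of the 6 were above WT, among them Mcm2 at 0.99 ± 0.36 and Mcm5 at 0.96 ± 0.39 (limma, adjusted p = 0.103 and 0.162), with Mcm6 at -0.57 ± 0.26. None of the 6 was called, and 5, Mcm6 among them, had an unadjusted p under 0.05 (limma, with 18.4% of all genes). The WT values of Mcm2, Mcm4 and Mcm7 include embryo k, which was at the floor for each. In HOM embryos the values for Mcm2, Mcm5 and Mcm6 were 0.46, 0.63 and -0.01. For the 8 activation genes the median was -0.10 in HET1 and 0.08 in HOM, or -0.28 and -0.23 after re-centring. Cdc7 was at -1.13 ± 0.42 in HET1, -1.64 ± 0.59 in HET2 and -0.25 ± 0.47 in HOM embryos (limma, adjusted p = 0.117, 0.429 and 0.843). Its litter 2 differed from litter 1 by -1.13 ± 0.51 in HET1 and by 1.61 ± 0.63 over HET2 and HOM embryos together (limma, adjusted p = 0.132 and 0.19). The clamp and loader genes had medians of -0.28 in HET1 and -0.14 in HOM, or -0.41 and -0.40 after re-centring. In HET2 embryos the medians were 0.15 for the helicase, -0.13 for the activation genes and -0.18 for the clamp and loader. They were 0.22, -0.12 and -0.15 after re-centring, and -0.02, -0.24 and -0.28 with libraries thinned to the lowest depth. Rpa1 and Rpa2 were 1.10 ± 0.42 and 1.01 ± 0.53 above WT in HOM embryos without being called (adjusted p = 0.22 and 0.37), and Rpa3 was at -0.23 ± 0.47. Rpa1, Rpa2 and Rpa3 were at 0.27, -0.10 and -0.06 in HET1 and at -0.09, -0.43 and 0.21 in HET2. Orc5 was 0.62 ± 0.39 above WT in HET1, 0.92 ± 0.55 above in HET2 and 0.28 ± 0.43 below in HOM embryos.

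Orc2, which encodes a core ORC subunit (chr1:58462771-58505109, minus strand), ranged from 6.78 to 8.90 log2 RPM in WT embryos (median 8.08), from 5.94 to 8.51 in HET1 (median 7.0) and from 5.57 to 7.95 in HOM embryos (median 7.32). In HET2 embryos it was at 8.06, 7.92, 6.58, 6.86 and 8.40. Single embryos overlapped between all groups, and WT embryos were on the whole higher. The difference from WT was -0.85 ± 0.23 in HET1 (limma, adjusted p = 0.0239, and 0.444 with litter as a random effect), -0.73 ± 0.25 in HOM (adjusted p = 0.177) and -0.39 ± 0.32 in HET2 (adjusted p = 0.816). The means of both HET1 litters (7.31 and 6.93) and of both HOM litters (7.52 and 7.09) were below those of both WT litters (8.05 and 7.72). Of the Orc2 exon length, 29.8% is shared with Nif3l1 on the opposite strand.

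Gins3 encodes a subunit of the GINS complex, which joins Cdc45 and Mcm2-7 in the active helicase (chr8:95633453-95645060, plus strand, 2709 bases of exon), and its level followed the litter. WT embryos of litter 1 ranged from 4.83 to 6.55 log2 RPM (median 5.77), and those of litter 2 were at 4.86, 5.02, 4.78 and 5.66. HET1 embryos of litter 1 ranged from 3.47 to 5.72 (median 4.82). In HET1 litter 2, 7 of the 8 embryos had 0 Gins3 reads, and the remaining 1 had 3 reads. No embryo of HET1 litter 2 overlapped an embryo of HET1 litter 1 or of WT. A count of 0 in those 7 libraries allows a level of up to 1.64 to 12.1 RPM, depending on depth. Pooled over embryos, HET1 litter 1 had 152 Gins3 reads among 5347202 and litter 2 had 3 among 6110644, a ratio of 57.9 (exact 95% interval 19.4 to 284, counting error only).

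The cKO-x-HET cross also had 1 litter with low and 1 with high Gins3, in both genotypes. In its litter 1 the HET2 embryos were at 1.86, 2.66, 1.86 and 2.67 log2 RPM and the HOM embryos at 3.11, 1.86 and 3.32. In its litter 2 the single HET2 embryo was at 5.75 and the 7 HOM embryos ranged from 4.27 to 6.15 (median 5.50). All 7 embryos of litter 1 were below all 8 embryos of litter 2, whichever genotype they had. Over HOM embryos alone the pooled reads were 34 in litter 1 and 269 in litter 2, a ratio of 4.84 (exact 95% interval 3.38 to 7.14).

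Between litters of the same group, Gins3 fell by 2.77 ± 0.30 from HET1 litter 1 to litter 2 (limma, adjusted p = 8.23e-08), the fifth smallest p of the 16412 genes, and rose by 2.60 ± 0.40 from HOM litter 1 to litter 2 (adjusted p = 0.00062). With HET2 and HOM embryos fitted together, the genotype in the model, the second difference was 2.84 ± 0.39 (adjusted p = 0.00451). Between the WT litters it was -0.64 ± 0.34 (adjusted p = 0.401). These fitted differences depend on the floor, since most values of HET1 litter 2 lie on it, and are no bounds on the change. Against WT, Gins3 was 2.3 ± 0.47 lower in HET1 (adjusted p = 0.004, and 0.176 with litter as a random effect), 2.58 ± 0.66 lower in HET2 (adjusted p = 0.218) and 0.96 ± 0.52 lower in HOM embryos (adjusted p = 0.394). Without HET1 litter 2 the HET1 difference was -0.82 and was not called. Between HOM and HET2 embryos, compared within their litters, 0 of the 43 genes were called (0.0122% of all genes, with 2 of the 43 and 4.36% of all genes at an unadjusted p under 0.05), and between HOM and HET1 embryos 0 of 43 (0.0244% of all genes, with 4 of the 43 and 11.3% of all genes at an unadjusted p under 0.05). On recovered reads, limma voom called 0 of the 43 and 0.0122% of all genes in both.

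**Figure D3:**
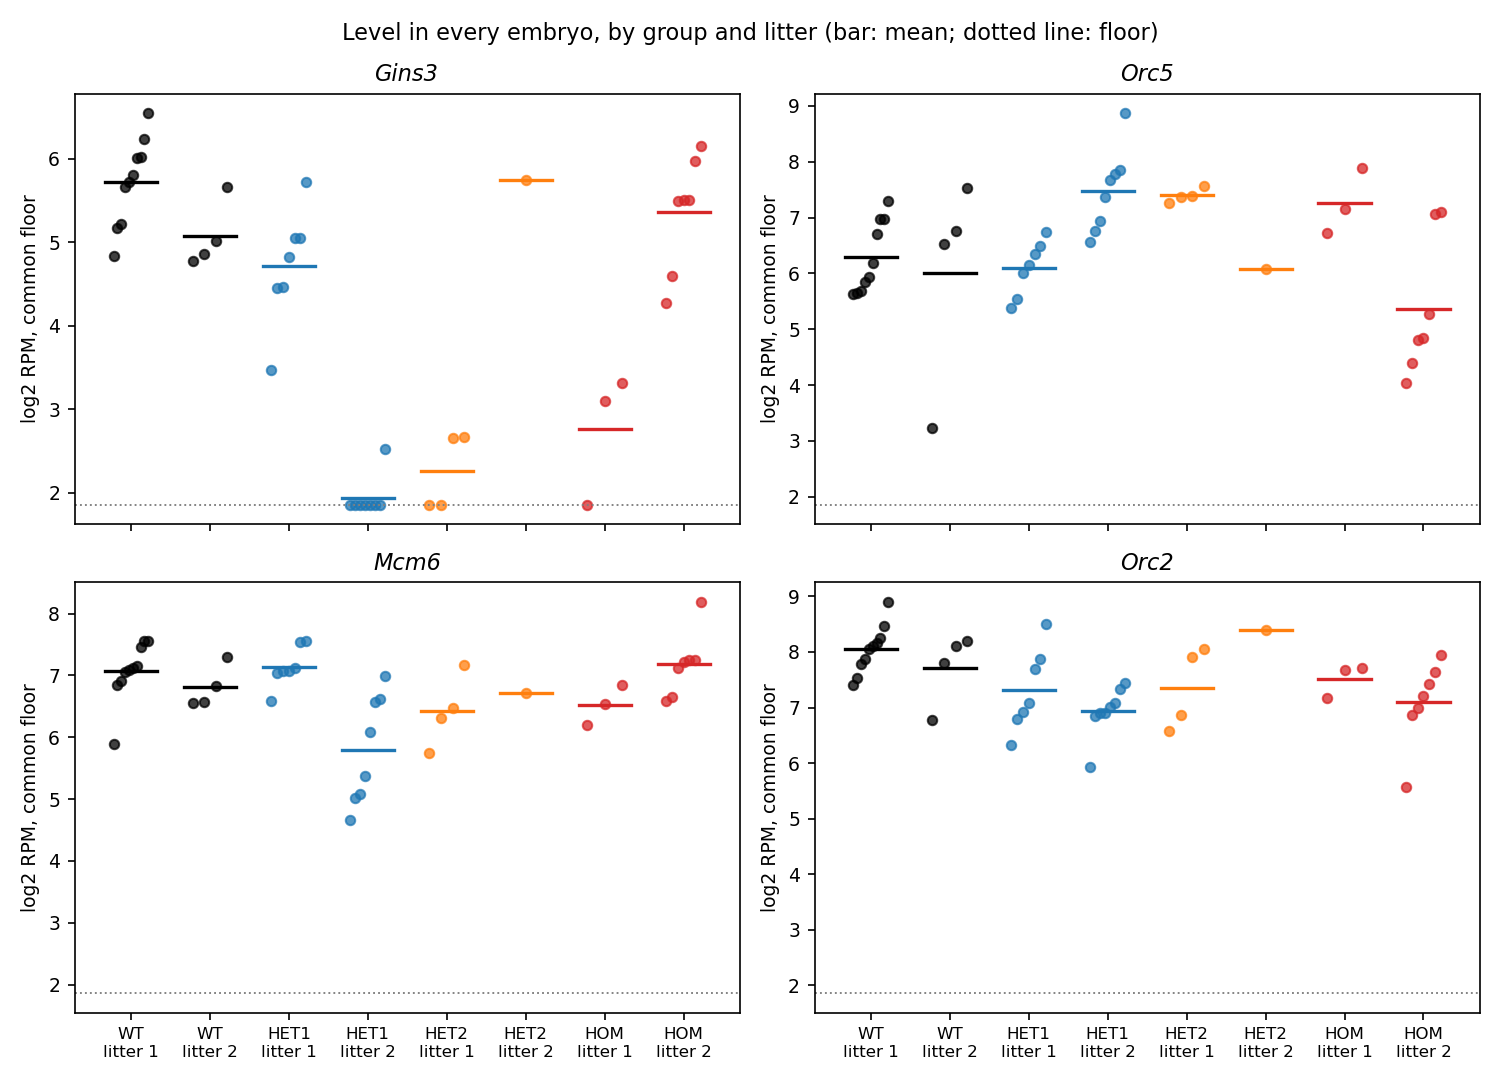
Log2 RPM of Gins3, Orc5, Mcm6 and Orc2 in each of the 44 embryos, by group and litter, with bars at the litter means and the common floor of 1.86 as a dotted line. Gins3 is at or near the floor in HET1 litter 2 and in litter 1 of HET2 and HOM embryos, and Orc5 is high in those same litters.

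More replication genes differed between the 2 HET1 litters than between any group and WT: 10 of the 43 were called, or 23.3%, with 16.6% of all genes tested (814 higher and 1907 lower, or 1265 and 1264 after re-centring). Of them 9 were lower in litter 2, or 20.9%, with 11.6% of all genes. Among genes with a mean of at least 3 log2 RPM, 10 of 36 replication genes (27.8%) and 29.5% of all genes were called, so that past this filter the 2 shares were close. The median difference of the 43 was -0.44, against -0.06 over all genes, and -0.13 after re-centring. Among genes with a mean of at least 3 log2 RPM it was -0.43, against -0.38 over all such genes. Beside Gins3, the genes lower in litter 2 came from 5 of the 7 roles, with 0 of 9 licensing and 0 of 2 Okazaki genes. They were Gins1 (-1.83 ± 0.55) and Cdc45 (-0.97 ± 0.34) of the helicase activators, Mcm6 (-1.34 ± 0.29) of the ring, Pole (-2.05 ± 0.54), Prim1 (-1.77 ± 0.42) and Prim2 (-1.44 ± 0.43) of the polymerases, the clamp loader subunit Rfc2 (-1.96 ± 0.47) and the RPA subunit Rpa2 (-2.10 ± 0.57). Their adjusted p-values ran from 0.00123 for Mcm6 to 0.0416 for Cdc45 (limma). When all libraries were thinned to 247667 reads, 5 of the 43 and 12.4% of all genes were called, the 5 all lower, and when each embryo was re-centred on its median 7 of the 43, 6 of them lower, and 15.4% of all genes were called.

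Mcm6 ranged from 6.58 to 7.56 log2 RPM in HET1 litter 1 (median 7.07) and from 4.67 to 6.98 in litter 2 (median 5.73). The litters overlapped through the highest embryos of litter 2. Mcm6 in WT embryos had a median of 7.07 and ranged from 5.89 to 7.56, and HET1 litter 1 lay within that range. Prim1, the catalytic primase subunit, did not overlap, from 6.05 to 7.31 in HET1 litter 1 and from 3.52 to 5.60 in litter 2. Pole ranged from 4.28 to 6.29 and from 1.86 to 6.79, and a single embryo of litter 2 was above all others. Rpa2 ranged from 5.68 to 7.24 and from 1.86 to 6.68. Cdc45, which travels with the helicase, ranged from 7.30 to 8.33 and from 5.33 to 8.03, and Prim2, the large primase subunit, from 4.62 to 5.55 and from 1.86 to 5.16, so both overlapped. Gins1 and Rfc2 had few reads: Gins1 had 3 to 57 in litter 1 and 0 to 9 in litter 2, where 4 of 8 embryos had none, and Rfc2 had 7 to 24 and 0 to 5.

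Orc5, an ATPase-fold subunit of ORC (chr5:22486485-22550429, minus strand), was the only one of the 43 called higher in HET1 litter 2, by 1.38 ± 0.46 (limma, adjusted p = 0.0339). It ranged from 5.38 to 6.74 log2 RPM in litter 1 (median 6.15) and from 6.56 to 8.87 in litter 2 (median 7.52), with a small overlap. In the cKO-x-HET litter 1 it was at 7.36, 7.57, 7.39 and 7.27 in HET2 embryos and at 7.88, 7.16 and 6.73 in HOM embryos. In litter 2 it was at 6.07 in the HET2 embryo and from 4.04 to 7.09 in the HOM embryos (median 4.84). The 7 embryos of that litter 1 were high, and 2 of the 7 HOM embryos of litter 2 reached their range. The difference of litter 2 from litter 1 over both genotypes was -1.74 ± 0.52 (adjusted p = 0.0884).

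**Figure D4:**
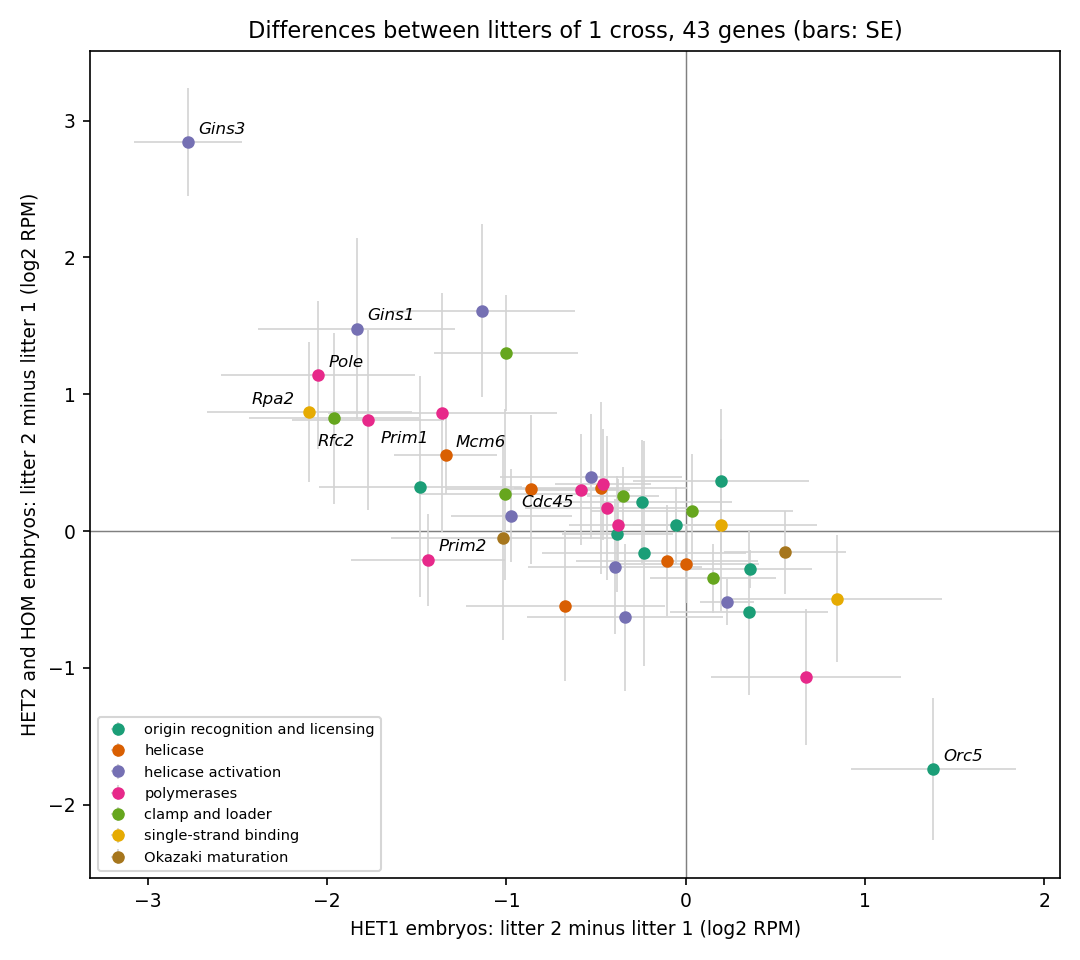
Difference of litter 2 from litter 1 in HET1 embryos (horizontal) and in HET2 and HOM embryos together (vertical), in log2 RPM with standard errors, for the 43 genes, coloured by role. Named genes were called between the HET1 litters, and all but Prim2 have the opposite sign on the vertical axis.

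In the cKO-x-HET litters, whose embryos are not those of the HET1 comparison, 1 of the 43 genes, Gins3, was called over both genotypes (3.41% of all genes) and 1, again Gins3, over HOM embryos alone (1.79% of all genes). Between the WT litters 0 of 43 were called (2.55% of all genes, with 5 of the 43 and 14.8% of all genes at an unadjusted p under 0.05). Of the 10 genes called between HET1 litters, 9 had the opposite sign between the cKO-x-HET litters, the exception being Prim2. This was so of 2533 of the 2721 genes called in all, or 93.1%, so the opposite sign was general among called genes. Litters are numbered by mating, and a number has no meaning across crosses.

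The same litters stood apart in other transcripts. Dppa2 had a mean of 7.30 log2 RPM in HET1 litter 1 and 5.74 in litter 2, and Dppa4 of 6.46 and 4.67, so both were lower in the litter with few Gins3 reads. Between the cKO-x-HET litters neither was called (0.79 ± 0.49 and 0.21 ± 0.21, limma, adjusted p = 0.407 and 0.658). That fit could show little, because its 10 HOM embryos were labelled by their lack of these transcripts. Its HET2 embryos were 4 in litter 1 and 1 in litter 2. The summed level of 15 two-cell embryo markers, such as Zscan4d and Tcstv1, had litter medians of 633 and 634 RPM in WT embryos, 696 and 1515 in HET1, 1283 and 385 in HET2 and 1060 and 653 in HOM embryos. The summed level of 14 oocyte markers, such as Gdf9 and Bmp15, had litter medians of 826 and 1305 in WT, 1164 and 2816 in HET1, 2333 and 533 in HET2 and 2299 and 1032 RPM in HOM embryos. Both sums were high where Gins3 was low and Orc5 high. All 15 and all 14 markers had reads in HET1 litter 2. Of the two-cell markers 9 of 15 were called higher in HET1 litter 2 and 5 of 15 lower in the cKO-x-HET litter 2, and of the oocyte markers 3 of 14 and 2 of 14, beside 4.96% of all genes higher and 1.98% lower. Against WT, the median differences of the two-cell and oocyte markers in HET1 embryos were 0.75 and 0.99, with the 2 and 3 calls given above beside 2.49% of all genes. In HOM embryos these medians were -0.05 and 0.68 and in HET2 embryos 0.83 and 0.61, and limma called 0 in either, with 1 of 15 and 7 of 14 in HOM (14.5% of all genes) and 3 of 15 and 2 of 14 in HET2 (8.52%) at an unadjusted p under 0.05. Called shares of all genes there were 0.0183% and 0.0305%. HET1 litter 2 was also the shallowest litter, with a median of 524828 reads against 663861 in litter 1, whereas in the cKO-x-HET cross the litter low in Gins3 was the deeper one for HOM embryos, with 1203546 against 673837, and the shallower one for HET2 embryos, with 1105921 against 1725669 in the single embryo of litter 2. With all libraries thinned to the same 247667 reads, Gins3 was still called between the HET1 litters (-2.19, limma, adjusted p = 0.000163) and between the HOM litters (2.93, adjusted p = 0.00134), while Orc5 between the HET1 litters was not (1.35, adjusted p = 0.0697). The part of Dppa2, Dppa4 and the 2 marker sets in the levels of the replication genes was not tested. Summed over the 43 genes, the litter medians of the 4 groups lay between 3326 and 3704 RPM. This sum hides differences by role. In HET1 litters 1 and 2 the polymerase medians were 422 and 236 RPM, and the licensing medians 1419 and 1628 RPM.

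**Figure D5:**
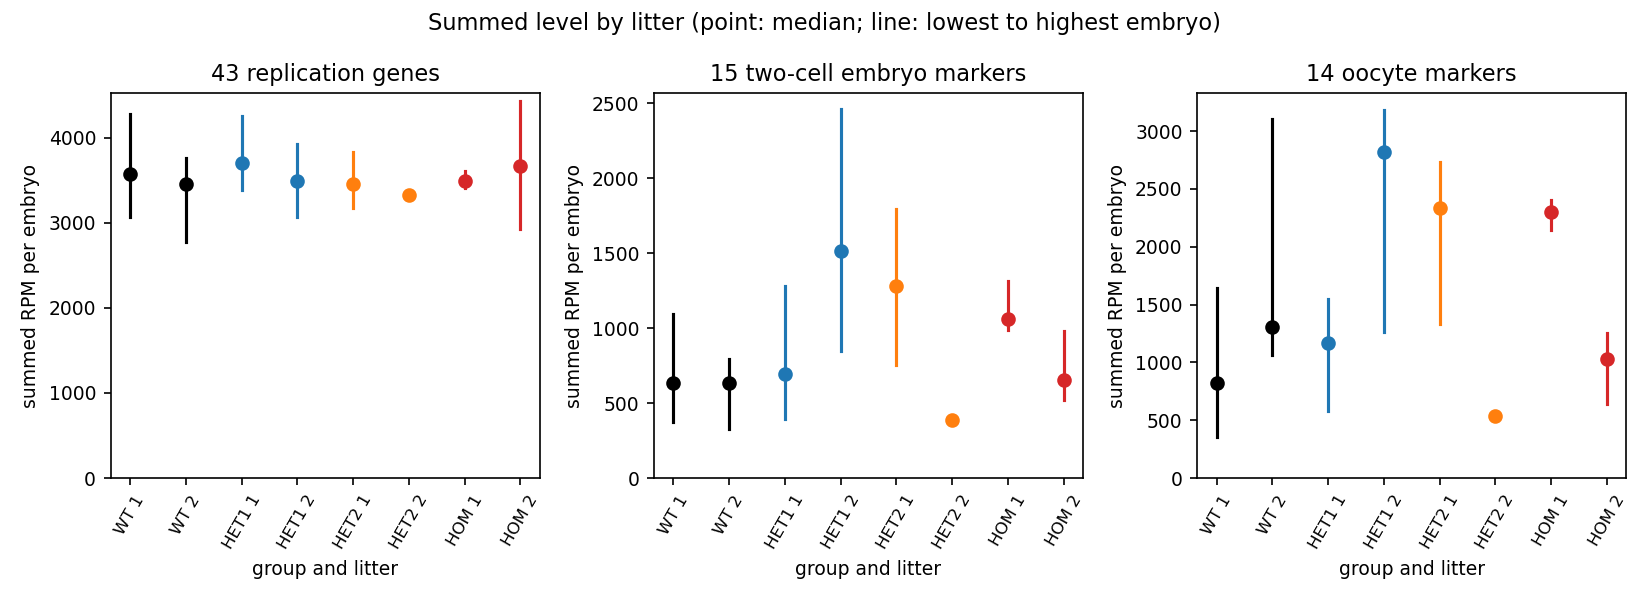
Summed RPM of the 43 replication genes, 15 two-cell embryo markers and 14 oocyte markers by group and litter, with points at the medians and lines from the lowest to the highest embryo, axes from 0. The sum of the replication genes, carried mostly by a few abundant genes, stays between 2769 and 4437 RPM. Both marker sums are higher in HET1 litter 2 and in litter 1 of HET2 and HOM embryos.

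A comparison of litter means uses the litter as the unit. In HET1, 13 of the 43 genes had both litter means above both WT litter means (19.4% of all genes) and 4 had both below (9.04%), and in HOM embryos 17 were above (21% of all genes) and 4 below (8.01%). Those below in HET1 were Orc2, Gins3, Cdc7 and Pola1, and those below in HOM were Orc2, Pola1, Rfc1 and Rfc4. The 2 comparisons share the WT litters. Those above in HET1 included Mcm2, Mcm3, Mcm4 and Mcm5 of the helicase and Orc6, Cdc6 and Cdt1 of licensing. This split moved with the scaling: after each embryo was re-centred on its median, 8 were above and 8 below in HET1 (14.7% and 14.2% of all genes) and 10 above and 10 below in HOM embryos (14.3% and 12.9%). With the deposited values and no common floor, 13 were above and 4 below in HET1, beside 7040 and 938 of the 16412 genes. In HOM embryos 18 were then above and 4 below, beside 5367 and 839 genes. Pola1, the catalytic subunit of the priming polymerase, was 0.49 ± 0.20 below WT in HET1 and 0.44 ± 0.22 below in HOM embryos (limma, adjusted p = 0.148 and 0.341).

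Genes that act beside the replication machinery were counted from 5 further lists, beside 2.49% of all genes called higher and 2.05% lower in HET1 than in WT embryos. Of 29 firing and fork factors, 2 were higher and 3 lower in HET1 than in WT embryos. Recql4, a helicase of the RecQ family, rose by 1.56 ± 0.38, and Topbp1, a scaffold of origin firing, fell by 0.72 ± 0.18 (limma, adjusted p = 0.0129 and 0.0164). Of 11 nucleotide supply genes 1 was called, the dUTPase Dut, higher by 1.74 ± 0.39 (adjusted p = 0.00715). Of 12 genes for chromatin behind the fork, 3 were lower, including the FACT subunit Supt16 by -0.94 ± 0.20 (adjusted p = 0.00545) and the histone chaperone Nasp by -0.59 ± 0.16 (adjusted p = 0.021). Of 12 tested S-phase kinases and cyclins 1 was higher, the kinase inhibitor Cdkn1a by 1.45 ± 0.40 (adjusted p = 0.0262), and of 12 tested E2F and pocket protein genes limma called 0 (4 had an unadjusted p under 0.05, with 18.4% of all genes). With litter as a random effect none of these calls was kept, with adjusted p-values from 0.248 to 0.513, and in HOM or HET2 against WT limma called 0 genes of the 5 lists (0.0183% and 0.0305% of all genes). At an unadjusted p under 0.05, HOM embryos had 7 of 29 fork factors, 5 of 12 kinases and cyclins, 3 of 12 chromatin genes, 1 of 11 nucleotide genes and 1 of 12 E2F genes (14.5% of all genes), and HET2 embryos had 7, 0, 1, 3 and 0 in the same order (8.52%).

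Between HET1 litters the same lists had 3 higher and 5 lower of 29, 3 and 3 of 11, 2 and 3 of 12, 1 and 0 of 12 (E2F genes) and 2 and 1 of 12 (kinases and cyclins), beside 4.96% of all genes higher and 11.6% lower. Largest among the nucleotide genes were Dtymk, which makes dTDP, at -2.89 ± 0.40, Nme1 at -2.54 ± 0.60 and the ribonucleotide reductase subunit Rrm1 at -2.35 ± 0.43. Among fork factors Wdhd1, which ties the priming polymerase to the helicase, was at -2.12 ± 0.47 (limma, adjusted p = 0.00178). E2f5 was higher in litter 2 by 2.31 ± 0.36 (adjusted p = 1.74e-05). In the cKO-x-HET litters Nme1 was at 2.84 ± 0.64 and Tk1, which salvages thymidine, at 2.65 ± 0.62 (adjusted p = 0.0295 and 0.0359), 2 of 11 nucleotide genes called. The maintenance methyltransferase Dnmt1 was higher in litter 2 by 1.31 ± 0.32 (1 of 12 chromatin genes, adjusted p = 0.0415), and Tfdp1, a partner of E2F factors, and the checkpoint kinase Chek1 were lower (1 of 12 in each list, -0.88 ± 0.22 and -0.79 ± 0.19, adjusted p = 0.0499 and 0.0436). There the fork factors had 0 of 29 called, with 6 at an unadjusted p under 0.05 (3.41% and 18.7% of all genes).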

How the data were processed

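Single two-cell embryos were profiled by RNA-seq after oligo-dT primed amplification, 1 library per embryo. Per the labels and the study's methods, reads were trimmed (Trim Galore 0.6.5, cutadapt 2.3), aligned to GRCm38 with HISAT2 2.1.0 and counted over genes in SeqMonk without regard to strand. The authors deposited 1 table of log2 values, the log2 of RPM. A gene with 0 reads is listed at the value of 0.9 reads. Of the values, 99.9997% gave a whole number of reads within 0.05, which gave the depth, 247667 to 3163026 reads.

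Values were raised to a common floor of 1.86, the 0-read value of the shallowest library. The 16412 genes whose log2 RPM averaged 0 or more were fitted with limma 3.58.1 (R 4.3.3, empirical Bayes with a mean-variance trend), and p-values were adjusted over all of them by Benjamini-Hochberg. Groups came from the sample titles and were fitted together. HOM and HET2 were compared with litter as a block, and litters were compared within groups. Both genotypes of the cKO-x-HET litters were compared together after the data were seen. Lengths and overlaps came from GENCODE M21. The script was tested on simulated reads drawn without differences between litters, which does not check p-values where litters differ. Alternatives changed the floor, filter, scaling, depth, unit of replication, weights and samples.

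The genes, lists and tests were chosen with earlier results of these data known. Values are given for members called in any comparison and for the highest and lowest of each role, and for at most 3 called genes of each further list. The WT levels of other members and the differences of Mcm2, Cdc7 and Pola1 are given outside that rule. No sample was left out.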

Additional observations from a re-analysis of the deposited data

Results flagged for a closer look

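The highest and lowest embryos of the HET2 and HOM groups were compared with the others for the 11 genes called in any comparison, 22 sets in all, and 5 held an embryo whose gap to its neighbour was large for the range of the set. The genes were chosen from these same data and the sets share embryos, so the count of 5 cannot be set against a chance rate. The HET2 flags for Gins3 and Orc5 restate the litter difference. In HET2 embryos, the embryo of litter 2 was highest for Gins3 (5.75 against 2.67 log2 RPM for the next, a gap of 0.793 of the range) and lowest for Orc5 (6.07 against 7.27, 0.797 of the range). It is the only HET2 embryo of that litter. Embryo c of HET2 was lowest for Prim2 (3.33 against 4.5, 0.735 of the range). In HOM embryos, embryo h was highest for Mcm6 (8.19 against 7.26, 0.469 of the range) and lowest for Orc2 (5.57 against 6.87, 0.545 of the range). WT and HET1 embryos were not compared in this way. Embryo k of WT, in litter 2, was at 3.81 log2 RPM for Orc6 against 8.12 or more in the other WT embryos. It was at the floor for Mcm2, Mcm4, Mcm7, Gins2, Gins4 and Prim2, and it is among the WT embryos of the comparisons above. The cause of these gaps was not tested.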

How the results depend on the processing

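The count of replication genes called between HET1 and WT embryos, 2 in the report, was 5 with the deposited values and no common floor (2 higher, 3 lower, with 24.7% of all genes called), 1 with no filter (1.11% of all genes) or with libraries thinned to 247667 reads (3.02%), and 0 with litter as a random effect or litter means as the replicates (0 of all genes in both), without HET1 litter 2 (0.0366%) or without WT litter 1 (1.74%). It was 11, all lower, without HET1 litter 1, where 14.3% of all genes were called and 7.15% lower. The median of all genes moved from 0.05 to 0.61 with the deposited values, where 3505 genes were called higher and 549 lower. Between HET2 and WT the count rose from 0 to 1, Gins3, with array weights (0.695% of all genes), without the cKO-x-HET litter 2 (0.146%) and without HET2 embryo e (0.232%), and was 0 to 1 when each HET2 embryo was left out. Between HOM and HET1 it was 1, Gins3, without the cKO-x-HET litter 1 (0.957% of all genes) and 7 without HET1 litter 1, with 12.7% of all genes. Between the HET1 litters it fell from 10 to 5 with thinned libraries (12.4% of all genes). Between the cKO-x-HET litters, a comparison added after the data were seen, it was 2, Gins3 and Orc5, with the deposited values (5.91% of all genes), a stricter filter of 3 (14.5%), array weights (6.15%) or limma voom (6.79%), and 0 with litter means as the replicates (0 of all genes). The stricter filter also gave 2 between the HOM litters, with 4.91% of all genes. No direction of a called gene reversed under any alternative run. Gins3 between the HET1 litters stayed called under all 23 alternatives, including each HET1 embryo left out, with differences from -4.79 to -2.03, and between the HOM litters under all 8. Orc2 in HET1 was called under 11 of 17. A replicate block on the mating number left 2 called between HET1 and WT, and changed no count of called genes among the 43. Counts at an unadjusted p under 0.05 (limma) moved from 14 to 11 in HET1 against WT and from 7 to 11 in HOM against WT. Between HOM and HET1 they moved from 4 to 6, and in HET2 against WT they stayed at 3. Re-centring each embryo changed the split of all genes called between the HOM litters from 142 higher and 152 lower to 104 and 189. The numbers mark different matings in each cross and do not pair embryos: over genes, differences of litter 2 from litter 1 correlated at 0.40 between WT and HET1 and at -0.71 between HET1 and the cKO-x-HET cross. For HOM and HET2 littermates the fit without the litter block also called 0. At these depths, genes near the floor, such as Pold1, Pold2 and Lig1, could not show a decrease.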
